A study of Mus musculus with 4 samples.

Results

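The liver lobule is zoned, and hepatocytes around the central vein express genes that those around the portal tract do not. 10 mouse genes of this pericentral program were followed here: the ammonia and glutamate genes *Glul*, *Oat*, *Rhbg* and *Slc1a2*, the Wnt target genes *Axin2*, *Tbx3* and *Lgr5*, and the enzyme genes *Cyp2e1*, *Cyp1a2* and *Gulo*. All non-control probes whose accession maps to 1 of these genes were taken, which gave 14 of the 55681 probes on the array for these 10 of its 19752 named genes. RNA of *Rap1*-deficient livers was compared with RNA of wild-type livers, with 3 biological replicates per genotype, on 4 Agilent 2-colour arrays that each carried both genotypes. *Rap1*-deficient mice (*Rap1* -/-) lack the telomere-binding protein RAP1 in the whole body. They descend from *Rap1* flox/flox mice crossed with mice that express cre from the *EIIa* promoter, and the cre allele was afterwards bred out of the colony. Both genotypes were on a C57BL6/129SV background (90%:10%) and 30 weeks old by the labels, which give no sex, whereas the paper describes somewhat older females as the source of its adult liver profiles. Replicates 1, 2 and 3 were hybridised with the *Rap1*-deficient liver in the dye Cy5 and the wild-type liver in Cy3. On the dye-swapped array, numbered 1 in the labels and taken as the swap of replicate 1, the *Rap1*-deficient liver carried Cy3.

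Pericentral identity is set by Wnt ligands and R-spondin that endothelial cells of the central vein release. They stabilize β-catenin, which enters the hepatocyte nucleus and switches on target genes together with TCF/LEF factors. Glutamine synthetase, encoded by *Glul*, is the classic product of this program: it captures the ammonia that the urea cycle of periportal cells has left and joins it to glutamate. Pericentral cells also hold much of the cytochrome P450 machinery for drugs and alcohol, and they keep the R-spondin receptor gene *Lgr5* and the feedback gene *Axin2* active.

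Promoter sequences are shown for *Axin2* and *Glul*, a Wnt target called lower and a pericentral enzyme called higher in *Rap1*-deficient liver over 3 pairs, and for *Slc1a2* and *Cyp2e1*, which hold the letters that TCF/LEF factors are known to recognise. RefSeq (GRCm38.p6) gave a window of 300 bases, 250 before and 50 after a start of transcription, for 6 of the 10 genes. The windows printed lie at chr11:108920099-108920398 (*Axin2*, plus strand), chr1:153899679-153899978 (*Glul*, plus strand), chr2:102706188-102706487 (*Slc1a2*, plus strand) and chr7:140763569-140763868 (*Cyp2e1*, plus strand). The windows of *Glul* and *Cyp2e1* lie at the first start of the gene in RefSeq, whereas those of *Axin2* and *Slc1a2* lie at a start inside the gene, downstream of the first. Capitals mark CTTTGA or its reverse complement TCAAAG.
Axin2: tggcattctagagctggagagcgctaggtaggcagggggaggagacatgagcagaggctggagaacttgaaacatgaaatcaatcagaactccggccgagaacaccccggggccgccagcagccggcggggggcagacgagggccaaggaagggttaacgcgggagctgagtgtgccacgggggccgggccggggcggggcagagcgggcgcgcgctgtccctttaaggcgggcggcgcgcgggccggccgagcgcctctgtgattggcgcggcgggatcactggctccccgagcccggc
Glul: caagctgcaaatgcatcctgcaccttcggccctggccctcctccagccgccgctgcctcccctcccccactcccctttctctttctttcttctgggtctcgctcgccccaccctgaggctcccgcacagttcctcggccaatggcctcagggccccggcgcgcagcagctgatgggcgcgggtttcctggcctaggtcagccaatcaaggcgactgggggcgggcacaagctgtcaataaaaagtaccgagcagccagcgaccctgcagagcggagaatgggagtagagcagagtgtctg
Slc1a2: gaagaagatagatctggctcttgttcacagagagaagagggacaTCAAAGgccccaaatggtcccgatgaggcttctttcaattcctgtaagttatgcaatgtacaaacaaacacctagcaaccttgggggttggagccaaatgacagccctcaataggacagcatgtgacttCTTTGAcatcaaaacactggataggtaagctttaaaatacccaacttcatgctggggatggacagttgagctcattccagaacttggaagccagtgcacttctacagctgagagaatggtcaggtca
Cyp2e1: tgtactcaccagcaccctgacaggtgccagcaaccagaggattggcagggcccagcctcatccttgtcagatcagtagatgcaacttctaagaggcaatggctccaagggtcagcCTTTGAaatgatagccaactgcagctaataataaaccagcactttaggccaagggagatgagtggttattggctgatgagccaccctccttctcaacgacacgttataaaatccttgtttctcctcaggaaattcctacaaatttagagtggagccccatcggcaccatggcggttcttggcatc
The letters CTTTGA on either strand were found in 3 of the 6 windows, those of *Slc1a2*, *Cyp2e1* and *Cyp1a2*, against 5257 of 32851 mouse promoters of the same length (16.0%). In *Slc1a2* they began at -206 (reverse strand) and -77, counted from the start of transcription of the window, and in *Cyp2e1* at -135. The windows of *Axin2*, *Glul* and *Oat* did not hold them. G and C made up 45.7% to 49.7% of the windows with these letters and 61.7% to 70.0% of those without. The part of base composition in this count was not tested.

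The deleted gene was checked first. For the *Terf2ip* (*Rap1*) probe A_52_P381806, *Rap1*-deficient liver exceeded background on 0 of 4 arrays and wild-type liver on 4 of 4, which put the signal of *Rap1*-deficient liver lower by at least 3.33-fold (adjusted p = 0.00859 in limma). A second *Terf2ip* probe, A_55_P2094079, was higher in *Rap1*-deficient liver on all 4 arrays (log2 fold change 0.96, adjusted p = 0.0329). The exon that either probe covers is unknown here, and a probe outside the deleted part does not check the labels. The dye-swapped array stood apart. The SD of its log2 ratios over all probes was 0.24, against 0.48 to 0.51 on the others, and with the sign turned it correlated at -0.24, -0.29 and -0.27 with replicates 1, 2 and 3, which correlated at 0.64 to 0.85 with each other. The value on the swap is therefore given for each zonation or list gene that is named. In each channel, 50.1% to 56.4% of spots exceeded background, and 0 were saturated. The RNA integrity numbers in the labels run between 6.6 and 8.7 without a split by genotype.

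Of the 14 probes, 12 were above background on enough arrays to be tested. Over 3 pairs (the swap averaged with replicate 1) and at a false discovery rate (FDR) under 0.15, 2 were higher in *Rap1*-deficient liver (*Rhbg* and *Glul*), 3 were lower (*Tbx3*, *Axin2* and *Lgr5*), and 7 did not pass. Replicates 2 and 3 entered in 1 dye orientation only, so all calls over 3 pairs can hold a dye effect beside that of genotype. Among all 27513 tested probes, 34.5% passed in either direction, 20.8% as higher and 13.7% as lower, so the count for these genes is near that of the array as a whole. Of all calls, 60.3% were higher, against 88.8% with median centring in place of loess, 49.3% from the processed signals of the scanner software and 45.3% from the authors' value table, and median centring moved the median of all tested probes to 0.18 from 0.03 on the log2 scale. Among the 12 tested probes, *Rhbg* alone was higher on all 4 arrays (10.6% of all probes were), and *Axin2* and *Tbx3* were lower on all 4 (10.9%). *Glul*, *Lgr5* and a *Slc1a2* probe read 1 way on replicates 1 to 3 and the other way on the swap, as did 43.9% of all tested probes.

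A fit with terms for genotype and dye was made over the 4 arrays. With 1 swapped array, its dye coefficient cannot be told apart from anything else that sets that array apart, and the fit counts the swap as an array independent of replicate 1. In it, *Rhbg* passed as higher (4.61% of all probes did) and *Axin2* and *Tbx3* as lower (2.09%). *Glul* and *Lgr5* did not pass. The dye coefficient itself passed for 2 of the 12 probes, those of *Glul* and *Slc1a2*, and for 27.6% of all probes. The genotypes' channel levels did not overlap on the 4 arrays for *Rhbg* (higher in *Rap1*-deficient liver, 4.72% of all probes) or for *Axin2* and *Tbx3* (lower, 5.8%). When the swap was entered as an array of its own, none of the 5 calls was made, and 83 of all probes passed, with 5578 at an unadjusted p under 0.05.

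**Figure D1:**
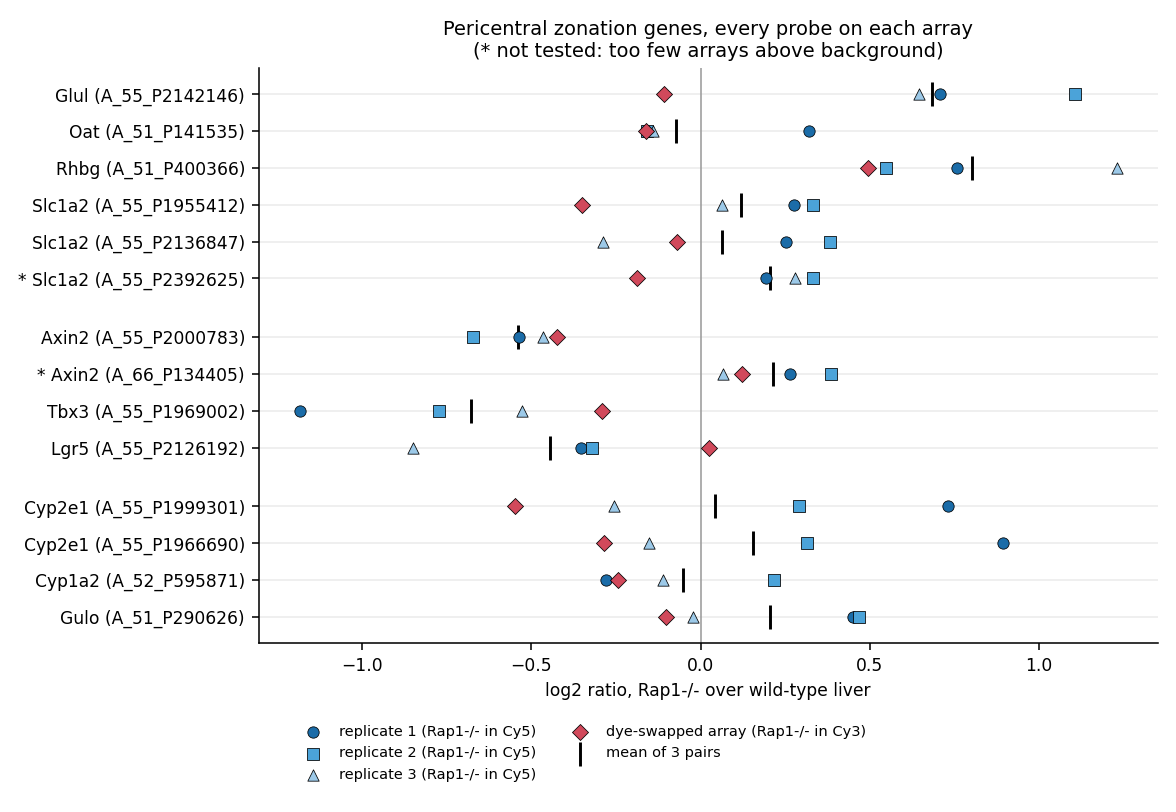
Log2 ratio of *Rap1*-deficient over wild-type liver for all 14 probes on each array, grouped as ammonia and glutamate genes, Wnt target genes and enzymes; blue symbols are the replicates with *Rap1*-deficient liver in Cy5, red diamonds the dye-swapped array with its sign turned, and bars the mean of 3 pairs. *Rhbg* lies right of 0 with all 4 symbols, *Tbx3* and the tested *Axin2* probe lie left of 0 with all 4, and *Glul* has its diamond at -0.11 while the other symbols reach 1.10.

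*Glul*, the gene of glutamine synthetase, was higher in *Rap1*-deficient liver over 3 pairs, and this was seen only with *Rap1*-deficient liver in Cy5. Its log2 channel levels, after loess and quantile normalization across arrays, were 14.37, 14.71 and 14.31 in *Rap1*-deficient liver of replicates 1, 2 and 3 and 14.14 on the swap, against 13.66, 13.61 and 13.67 and, on the swap, 14.25 in wild-type liver. The genotypes were apart on the 3 arrays with *Rap1*-deficient liver in Cy5 and nearly level on the swap, where wild-type liver was slightly brighter. The log2 ratios were 0.71, 1.10 and 0.64, with -0.11 on the swap. Over 3 pairs the log2 fold change was 0.68 (SE 0.16, 95% CI 0.28 to 1.09, 1.61-fold, adjusted p = 0.0576). With the dye term it was 0.35 (SE 0.11, adjusted p = 0.205), with a dye coefficient of 0.46 (SE 0.11, adjusted p = 0.0593). Without replicate 2 the fold change was 0.47 (adjusted p = 0.310) and without replicate 3 it was 0.70 (adjusted p = 0.153).

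*Rhbg* encodes a Rhesus-family ammonia channel of the hepatocyte membrane. Its log2 channel levels were 9.67, 9.55 and 10.34 in *Rap1*-deficient liver and 9.67 on the swap, against 8.91, 9.01 and 9.11 and, on the swap, 9.17 in wild-type liver. All levels of *Rap1*-deficient liver lay above all levels of wild-type liver, with replicate 3 the highest. The log2 ratios were 0.76, 0.55 and 1.23, with 0.49 on the swap. *Rhbg* was 1.74-fold higher in *Rap1*-deficient liver (log2 fold change 0.80, SE 0.15, 95% CI 0.42 to 1.18, adjusted p = 0.0426), and the dye term gave 0.67 (SE 0.14, adjusted p = 0.108). Without replicate 2 the fold change was 0.93, with an adjusted p of 0.267.

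*Slc1a2*, which encodes a glutamate transporter, had 3 probes, and none passed. The probe A_55_P1955412 had log2 ratios of 0.28, 0.33 and 0.06, with -0.35 on the swap, and a fold change of 0.12 (95% CI -0.14 to 0.38, adjusted p = 0.455). Its dye coefficient was 0.29 (SE 0.09, adjusted p = 0.0963). Without the swap it was called higher, at 0.22 (adjusted p = 0.100). The probe A_55_P2136847, designed to another transcript of the gene, had ratios of 0.25, 0.38 and -0.29, with -0.07 on the swap, and a fold change of 0.06 (95% CI -0.29 to 0.42, adjusted p = 0.781). The remaining *Slc1a2* probe, A_55_P2392625, was well above background on 2 arrays in *Rap1*-deficient liver and 1 in wild-type liver and was not tested, with ratios of 0.19, 0.33 and 0.28 and -0.19 on the swap. The swap was the lowest array for 2 of these 3 probes.

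*Oat* encodes ornithine aminotransferase, which turns ornithine towards glutamate and proline. Its log2 ratios were 0.32, -0.16 and -0.14, with -0.16 on the swap, so that only replicate 1 in the Cy5 orientation was above 0. The fold change over 3 pairs was -0.07 (95% CI -0.30 to 0.16, adjusted p = 0.608). Among the 4 ammonia and glutamate genes, *Glul* and *Rhbg* thus passed as higher and *Oat* and *Slc1a2* did not pass.

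**Figure D2:**
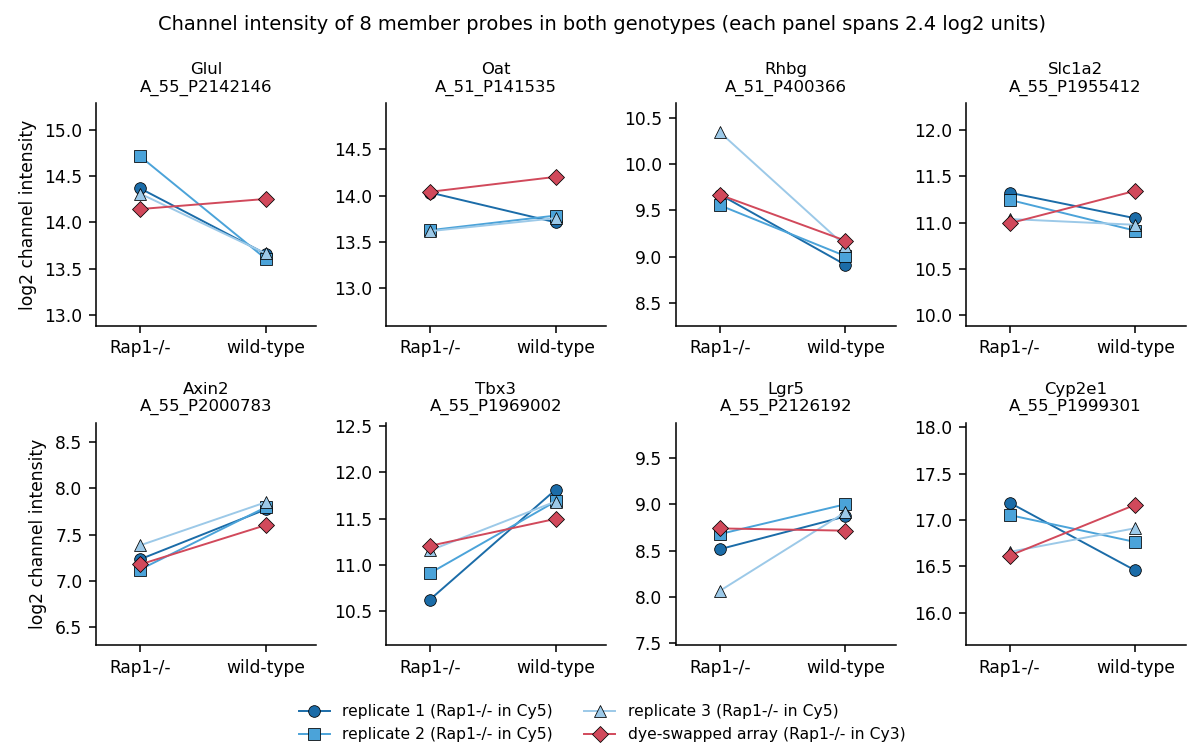
Log2 channel intensity of 8 tested probes, with *Rap1*-deficient liver on the left and wild-type liver on the right of each panel and a line for each array. The lines of *Rhbg*, *Axin2* and *Tbx3* all run the same way, with the swap (red) included, whereas the swap of *Glul*, at 14.14 in *Rap1*-deficient liver and 14.25 in wild-type liver, runs against the other arrays.

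*Tbx3*, *Axin2* and *Lgr5*, grouped here as Wnt target genes, were all lower in *Rap1*-deficient liver over 3 pairs. *Glul*, the classic product of the Wnt program, was higher over 3 pairs (-0.11 on the swap), so not all genes of that program were lower. *Tbx3* encodes a T-box repressor that is switched on by β-catenin in hepatocytes. Its log2 channel levels were 10.63, 10.91 and 11.16 in *Rap1*-deficient liver and 11.21 on the swap, against 11.81, 11.68 and 11.68 and, on the swap, 11.50 in wild-type liver. No level of *Rap1*-deficient liver reached that of any wild-type liver, and the gap was widest in replicate 1 and narrowest on the swap. The log2 ratios were -1.18, -0.77 and -0.53, with -0.29 on the swap. *Tbx3* fell by 0.68 on the log2 scale, or 1.60-fold (SE 0.09, 95% CI -0.91 to -0.45, adjusted p = 0.0402). The dye term gave -0.56 (SE 0.14, adjusted p = 0.134). Without replicate 2 the fold change was -0.63, with an adjusted p of 0.267.

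*Axin2* encodes a scaffold of the complex that destroys β-catenin, and its transcription is a standard readout of Wnt signaling. The probe A_55_P2000783 had log2 channel levels of 7.24, 7.12 and 7.39 in *Rap1*-deficient liver and 7.18 on the swap, against 7.77, 7.80 and 7.85 and, on the swap, 7.60 in wild-type liver. The genotypes did not overlap, and the 4 log2 ratios lay close together at -0.54, -0.67, -0.46 and, on the swap, -0.42. *Axin2* was 1.45-fold lower (log2 fold change -0.54, SE 0.09, 95% CI -0.76 to -0.32, adjusted p = 0.0402), and the dye term gave -0.49 (SE 0.08, adjusted p = 0.0709), with a dye coefficient of -0.07 (SE 0.08). Median centring gave -0.34 with an adjusted p of 0.162, and leaving out replicate 2 gave -0.47 with an adjusted p of 0.279. The processed signals of the scanner software gave -0.91 (adjusted p = 0.0492 in limma), so the size of the difference depended on the processing. A second *Axin2* probe, A_66_P134405, was well above background on 0 arrays in either genotype and was not tested. Its log2 ratios were 0.27, 0.38 and 0.07, with 0.12 on the swap, opposite in sign to those of the brighter probe.

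*Lgr5* encodes a receptor for R-spondins. Its log2 channel levels were 8.51, 8.68 and 8.06 in *Rap1*-deficient liver and 8.74 on the swap, against 8.87, 8.999 and 8.91 and, on the swap, 8.71 in wild-type liver. Replicate 3 of *Rap1*-deficient liver was the lowest, and the genotypes were level on the swap. The log2 ratios were -0.35, -0.32 and -0.85, with 0.02 on the swap. The fold change was -0.44 (SE 0.15, 95% CI -0.82 to -0.07, 1.36-fold lower, adjusted p = 0.105). The call was lost with the dye term (-0.24, SE 0.13, adjusted p = 0.382), with median centring (-0.25, adjusted p = 0.252), without replicate 2 (-0.51, adjusted p = 0.366) and without replicate 3 (-0.24, adjusted p = 0.320).

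**Figure D3:**
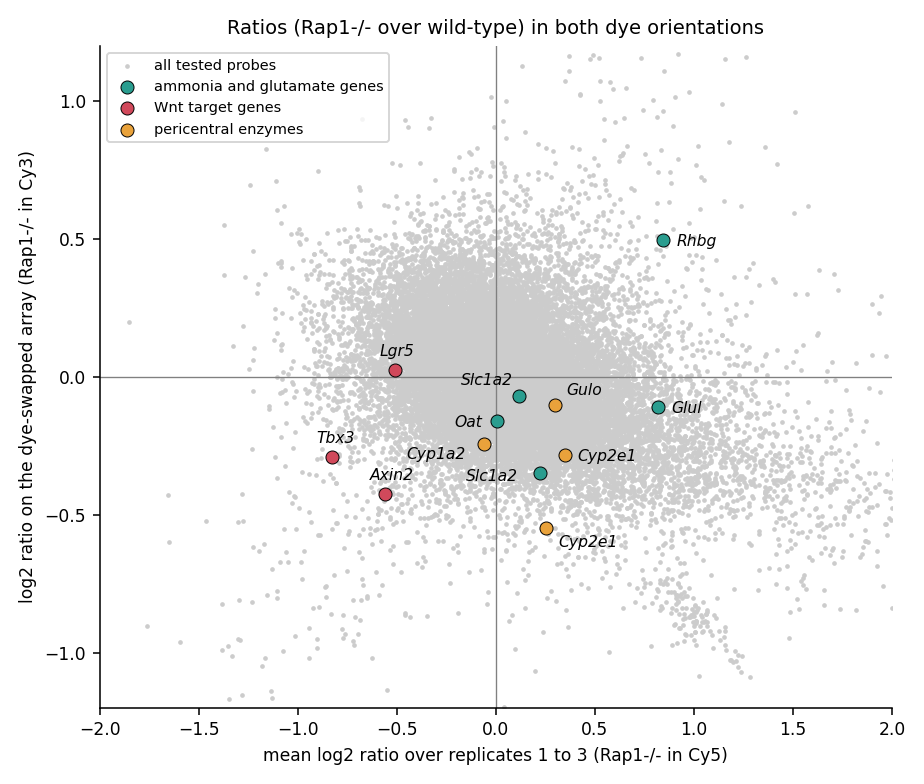
Mean log2 ratio over replicates 1 to 3 (horizontal axis) against the log2 ratio on the dye-swapped array (vertical axis), both *Rap1*-deficient over wild-type, for the 12 tested member probes in colour and all 27513 tested probes in grey, 189 of which lie outside the axes. *Rhbg* lies in the upper right and *Axin2* and *Tbx3* in the lower left, where both orientations have the same sign, while *Glul* lies at 0.82 on the horizontal axis and below 0 on the vertical axis.

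None of the enzyme probes passed. *Cyp2e1*, the cytochrome P450 that oxidizes ethanol and acetaminophen, had 2 probes. For A_55_P1999301 the log2 channel levels were 17.19, 17.05 and 16.66 in *Rap1*-deficient liver and 16.62 on the swap, against 16.46, 16.76 and 16.91 and, on the swap, 17.16 in wild-type liver. Replicates 1 and 2 were higher in *Rap1*-deficient liver, and replicate 3 and the swap were lower. The log2 ratios were 0.73, 0.29 and -0.26, with -0.55 on the swap, and the fold change was 0.04 (95% CI -0.27 to 0.36, adjusted p = 0.833). The probe A_55_P1966690 ran in the same order, at 0.89, 0.31 and -0.15, with -0.29 on the swap, and a fold change of 0.15 (95% CI -0.15 to 0.46, adjusted p = 0.411). It passed as higher with median centring (0.37, adjusted p = 0.146).

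*Cyp1a2* encodes a P450 that metabolizes caffeine and is induced through the aryl hydrocarbon receptor. Its log2 ratios were -0.28, 0.22 and -0.11, with -0.24 on the swap, and both orientations of replicate 1 were close. The fold change was -0.05 (95% CI -0.34 to 0.24, adjusted p = 0.780). *Gulo* encodes the enzyme of the last step of vitamin C synthesis. Its ratios were 0.45, 0.47 and -0.02, with -0.10 on the swap, and its fold change was 0.21 (95% CI -0.09 to 0.50, adjusted p = 0.269). *Gulo* passed as higher without the swap (0.30, adjusted p = 0.109). On the swap, all 4 enzyme probes read below 0, and so did each of 9 hepatocyte markers. Among these is *Cps1* (-0.60 on the swap), which is also in the list of periportal genes. The medians of the markers were 0.20, 0.16 and 0.05 on replicates 1, 2 and 3 and -0.51 on the swap. The part of this shift in the enzyme values was not tested.

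Other genes of both zones were read from lists, each gene by its brightest tested probe. At the gene level the 10 zonation genes had a median log2 fold change of -0.0047, against 0.0049 over all 13167 named tested genes, of which 2376 were higher and 2120 lower. Of 21 other pericentral genes tested, 7 were higher, 7 were lower and 7 did not pass, with a median of -0.03 (-0.11 on the swap). The mean of all probes of each gene in place of the brightest gave 0.11. *Rgn*, which encodes the calcium-binding protein regucalcin, was lower (-0.77, adjusted p = 0.0402, -0.29 on the swap), as was the vasopressin receptor gene *Avpr1a* (-0.81, adjusted p = 0.0405, -0.93 on the swap). The fatty aldehyde dehydrogenase gene *Aldh3a2* was higher over 3 pairs (2.08, adjusted p = 0.0402) but read -0.57 on the swap. Over 3 pairs the pericentral list thus held as many genes higher as lower. On all 4 arrays, 3 of the 21 genes were higher and 7 lower, against 1366 higher and 1506 lower of all 13167 named tested genes. The 9 hepatocyte markers had a median of -0.51 on the swap, and the part of that shift in these counts was not tested.

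Of 19 periportal genes, 6 were higher, 1 was lower and 12 did not pass, with a median of 0.10 (-0.23 on the swap). *Gldc*, the glycine decarboxylase, was higher on all arrays (1.19, adjusted p = 0.0324, 0.34 on the swap). The E-cadherin gene *Cdh1* was the 1 lower gene (-1.55, adjusted p = 0.0402, -1.24 on the swap). The urea cycle enzyme gene *Arg1* was higher over 3 pairs (1.18, adjusted p = 0.0463) and read -0.38 on the swap, and *Hsd17b6*, a steroid dehydrogenase gene, was higher (0.87, adjusted p = 0.0402) and read -0.77. With the dye term, 2 of the 21 pericentral genes were higher and 2 lower, and 2 of the 19 periportal genes were higher and 1 lower, among 488 higher and 360 lower of all named genes. The higher pericentral genes were *Aldh3a2* (-0.57 on the swap) and *Pon1*, added here (-0.11). The higher periportal genes were *Gldc* (0.34 on the swap) and *Arg1* (-0.38). A pass with this term thus does not require the same sign on the swap. The lower genes, *Rgn*, *Avpr1a* and *Cdh1*, read below 0 on the swap.

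Of 9 other Wnt feedback targets tested, 4 were lower and 0 higher over 3 pairs, with a median log2 fold change of -0.29 and -0.30 on the swap. Of all 13167 named tested genes, 2120 were lower and 2376 higher. The list is named for its feedback genes but also holds other Wnt targets, such as *Myc*, *Ccnd1* and *Lhx2*. *Sp5*, which encodes a repressor induced by Wnt, had log2 ratios of -0.76, -0.63 and -0.82, with -0.30 on the swap (fold change -0.66, SE 0.09, adjusted p = 0.0402). *Nkd2*, of the Naked cuticle family that antagonizes dishevelled, was also lower on all 4 arrays (-0.49, -0.37 and -0.08, with -0.50 on the swap; fold change -0.31, adjusted p = 0.116). *Nkd1*, of the same family, was lower over 3 pairs (-0.55, adjusted p = 0.0562) and read 0.19 on the swap, and *Lhx2*, a LIM homeobox gene, was lower (-0.54, adjusted p = 0.0403) and read 0.07. With the dye term *Sp5* and *Nkd2* passed as lower and 0 of the 9 as higher. *Axin2*, *Tbx3*, *Sp5* and *Nkd2* read below 0 on all 4 arrays, as did 1506 of all 13167 named tested genes. *Lgr5*, *Nkd1* and *Lhx2* read above 0 on the swap. The genes of this list that did not pass were added here. *Myc*, *Ccnd1* and *Rnf43* had fold changes below 0 (-0.31, -0.68 and -0.08 on the swap). *Notum* had 0.20 (adjusted p = 0.290, -0.30 on the swap) and *Tnfrsf19* 0.15 (adjusted p = 0.243, 0.46 on the swap).

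Upstream of these targets the lists were mixed. Of 19 Wnt ligands, enhancers and receptors tested, 3 were higher, 4 lower and 12 did not pass, with a median of -0.04 (0.14 on the swap), and 0 passed with the dye term. The coreceptor gene *Lrp5* was higher (0.56, adjusted p = 0.0419, -0.12 on the swap), as were the frizzled receptor genes *Fzd8* (0.49, adjusted p = 0.0546, -0.30 on the swap) and *Fzd4* (0.42, adjusted p = 0.0744, 0.19 on the swap). *Wls*, needed for Wnt secretion, was lower (-0.51, adjusted p = 0.0636, 0.09 on the swap). The ligand genes of the central vein were singled out after their values had been seen. *Rspo3* was lower over 3 pairs (-0.39, adjusted p = 0.0885) and read 0.18 on the swap, *Wnt2* had a fold change of 0.02 (adjusted p = 0.875, 0.17 on the swap), and *Wnt9b* had -0.04 (adjusted p = 0.808, 0.0074 on the swap).

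Of 19 genes for the β-catenin core and TCF factors, 6 were higher, 2 lower and 11 did not pass, with a median of 0.04 (-0.01 on the swap). On all 4 arrays, 1 of them was higher (*Gsk3b*) and 0 lower, against 1366 and 1506 of all 13167 named tested genes. With the dye term, 1 passed as higher (*Dvl3*) and 0 as lower, among 488 and 360 of all named genes. *Dvl3*, a dishevelled gene, was higher over 3 pairs (1.39, adjusted p = 0.0425) and read -0.39 on the swap, and *Gsk3b*, the kinase that marks β-catenin for destruction, was higher (0.40, adjusted p = 0.0504, 0.08 on the swap). *Axin1* was higher (0.40, adjusted p = 0.0746, -0.22 on the swap) and *Tcf7l1* lower (-0.44, adjusted p = 0.0612, 0.21 on the swap). The β-catenin gene *Ctnnb1*, also chosen after its values had been seen, had a fold change of 0.03 (95% CI -0.18 to 0.25, adjusted p = 0.815) and read -0.27 on the swap. Beside *Cyp1a2*, the 8 tested aryl hydrocarbon receptor genes held 1 higher, 1 lower (*Arnt*, -0.36, adjusted p = 0.0694, but 0.25 on the swap) and 6 that did not pass, among them *Ahr* (-0.19, adjusted p = 0.162, 0.013 on the swap) and *Cyp1b1* (0.36, adjusted p = 0.212, -0.037 on the swap).

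**Figure D4:**
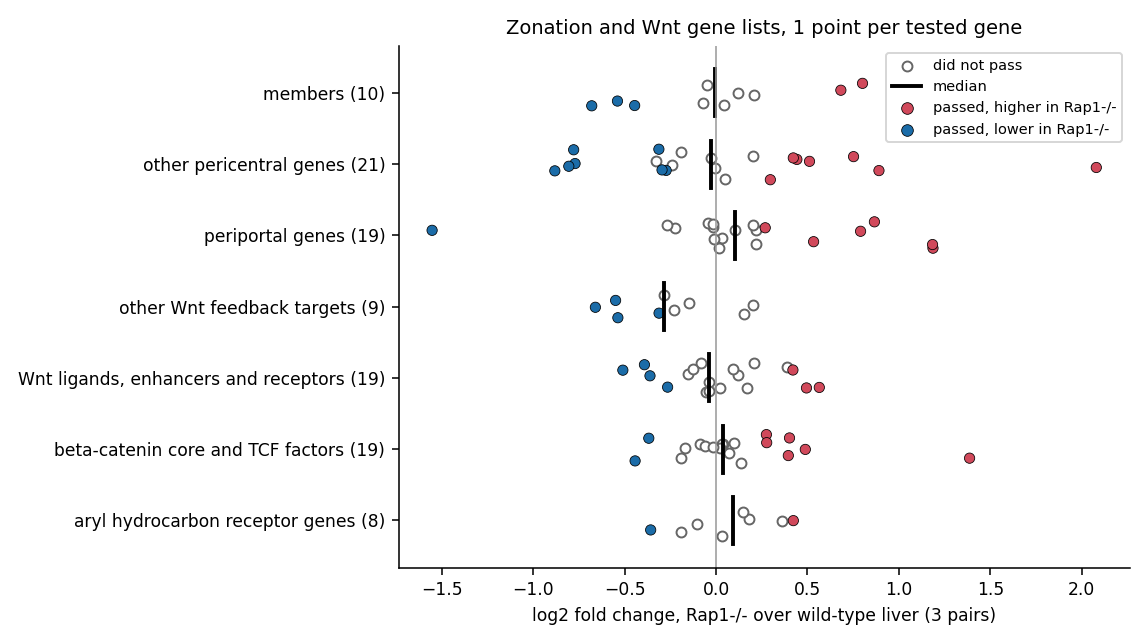
Log2 fold change of *Rap1*-deficient over wild-type liver over 3 pairs for each tested gene of 7 lists, with filled points for genes that passed (red higher, blue lower), open points for those that did not and a bar at the median. The bar of the other Wnt feedback targets lies at -0.29, and those of the remaining lists lie between -0.04 and 0.10.

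The genes nearest to *Glul* by Euclidean distance over the 4 log2 ratios, among 13166 other named genes, were *Anks4b* (distance 0.10), *Krtap6-1* (0.13) and *Snrk* (0.14). *Anks4b* had ratios of 0.64, 1.13 and 0.68, with -0.04 on the swap. Like *Glul*, all 3 were near or below 0 on the swap and at or above 0.59 on the other arrays. This likeness follows from how they were chosen.

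Whole liver was profiled, so fewer cells of a type and less RNA per cell cannot be told apart. Of 8 endothelial markers, 4 were higher and 0 lower in *Rap1*-deficient liver over 3 pairs. Of all 13167 named tested genes, 2376 were higher and 2120 lower. The 4 markers that passed, *Kdr*, *Cdh5*, *Pecam1* and *Tek*, all read below 0 on the swap (-0.35, -0.019, -0.089 and -0.20). Endothelial medians were 0.41, 0.35 and 0.36 on replicates 1 to 3 and -0.11 on the swap. Their mean level was 9.83 to 9.99 in *Rap1*-deficient liver and 9.45 to 9.92 in wild-type liver. Of 7 macrophage markers, 0 were higher and 1 lower, and their medians were -0.75, -0.00072 and 1.14, with -0.27 on the swap. Their mean level ran between 10.9 and 12.6 in *Rap1*-deficient liver and between 11.5 and 11.6 in wild-type liver. Of 9 hepatocyte markers, 2 were higher and 1 lower, at a mean level of 15.2 to 15.6 in *Rap1*-deficient liver and 15.3 to 15.6 in wild-type liver, so the markers of the labelled tissue were bright in both genotypes. The part of other cell types in the values of the zonation genes was not tested.

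**Figure D5:**
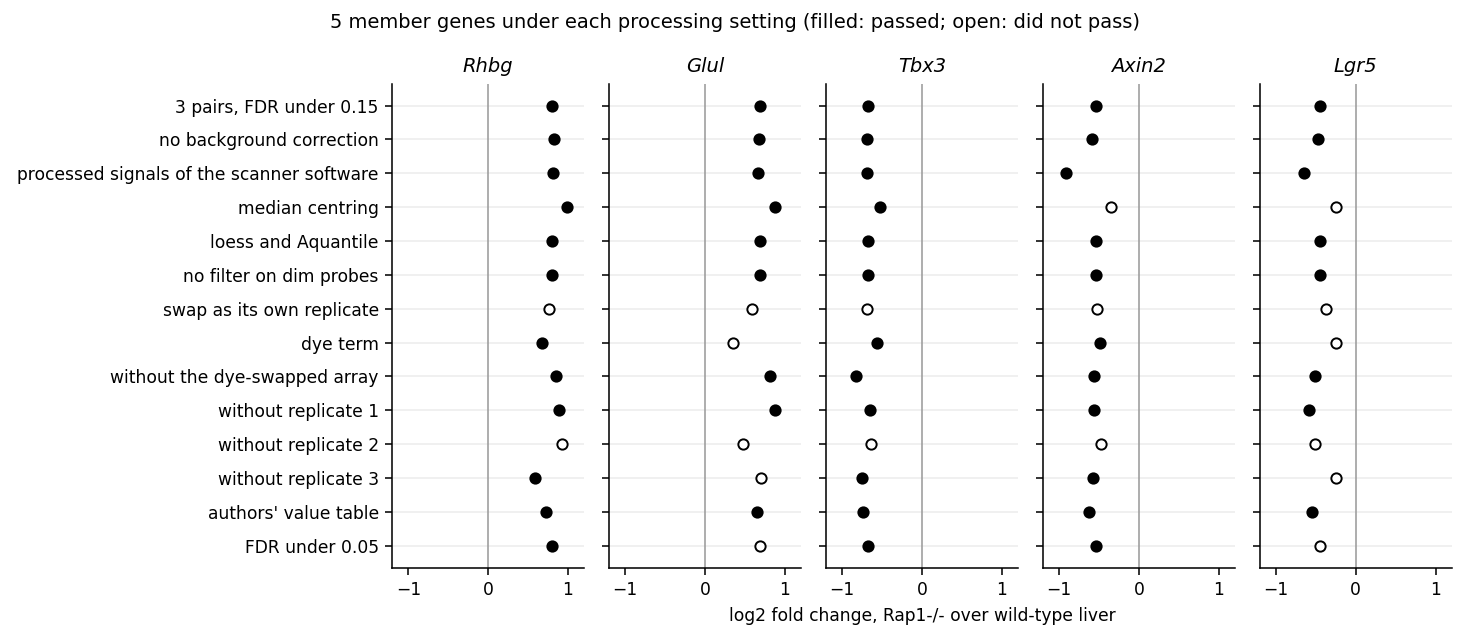
Log2 fold change of *Rap1*-deficient over wild-type liver (horizontal axis) for the 5 genes that passed over 3 pairs, under each processing setting (vertical axis), with filled points where the probe passed and open points where it did not. All points of *Rhbg* and *Glul* lie right of 0 and all points of *Tbx3*, *Axin2* and *Lgr5* left of 0, and *Lgr5* passed under the fewest settings.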

How the data were processed

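Liver RNA of *Rap1*-deficient and wild-type mice was hybridised on 4 Agilent 2-colour arrays, all on 1 slide with 1 scan time. The authors deposited each scan as median intensities of the spots and of their local background in Cy3 and Cy5, from Agilent Feature Extraction 10.7.3.1 by the file headers. The scans also hold intensities after background subtraction and dye normalization by that software, and a log10 ratio of both dyes (Cy5 over Cy3) as deposited, with the swap not turned. The authors' value table holds log2 ratios made with limma. Its swap column was found to be turned already (r = 0.992 with the turned scan ratios), its column medians were -0.01, -0.02 and -0.02 for replicates 1, 2 and 3 and 0.00083 for the swap, and how it was background-corrected and normalized is not stated in these sources.

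In limma 3.58.1 (R 4.3.3), normexp with an offset of 50 was applied to the median intensities, followed by loess on each array with weight 0 for controls. Spots with an outlier flag were left out, spots of a probe were averaged, and the swap was turned and averaged with replicate 1. Tests covered the 27513 probes (49.4%) for which, in 1 genotype or both, no array had under 0.5 of the spots flagged as well above background. The intercept over 3 pairs was tested with lmFit and eBayes, the Benjamini-Hochberg adjustment ran over all of these probes, and the threshold was the FDR of 0.15 that the paper uses. The dye-term fit used the same tool on 4 arrays. Channel levels come from loess and Aquantile normalization. They are open to dye bias, since only 1 replicate was swapped, and so are the fold changes, p-values and calls over 3 pairs. SEs are those that eBayes moderates over all probes, from 3 pairs or, for the dye-term fit, from 4 arrays, and these numbers limit the precision. A bound sets the brighter genotype against the higher of the lowest signal well above background and the probe's own.

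Probes carry accessions, of which 26056 (46.8%) were named through a RefSeq table of GRCm38.p6. The array design uses mm9, so probes were matched to genes by accession and not by position. Gene starts in GRCm38.p6 served only to say where the promoter windows lie. The text names the 10 genes with all probes, the deleted gene, up to 4 genes with the smallest p in each list and the 3 genes nearest to *Glul*, and says where others were added. A few genes that this rule would name are not reported here. The genes and the lists were chosen with earlier results of these data known, and no p-value was adjusted over a list alone. The fits were tested on simulated data. Noise was simulated as independent between arrays, with like spread on all 4 and no dye effect. The dye-term fit was also run on nearly noise-free ratios with a set dye effect. Neither simulation resembled the swap of these data, so its handling was not checked by them. Alternatives changed the background correction, the normalization, the filter, the handling of the swap, the replicates, the source of the ratios and the threshold.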

Additional observations from a re-analysis of the deposited data

Results flagged for a closer look

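3 of the tested probes read 1 way on every array with *Rap1*-deficient liver in Cy5 and the other way on the dye-swapped array, and the difference between the orientations was not tested by these signs alone. *Glul* read -0.11 on the swap, against log2 ratios of 0.71, 1.10 and 0.64 on replicates 1, 2 and 3. *Slc1a2* (probe A_55_P1955412) read -0.35, against 0.28, 0.33 and 0.06. *Lgr5* read 0.024, against -0.35, -0.32 and -0.85. The dye coefficient of the fit over 4 arrays, in limma, had an adjusted p of 0.0593 for *Glul*, 0.0963 for *Slc1a2* and 0.224 for *Lgr5*.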

How the results depend on the processing

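The number of these probes called higher (2) and lower (3) and of all probes called (9488) moved with the handling of the swap. The swap as its own replicate gave 0 higher, 0 lower and 83 in all, the dye term gave 1 higher and 1844 in all, and leaving out the swap gave 4 higher and 14496 in all. Median centring gave 1 lower and 6187 in all, and an FDR under 0.05 gave 1 higher and 2495 in all. Leaving out a replicate gave 0 to 2 higher, 0 to 3 lower and 7 to 12596 in all. The lowest of each came without replicate 2, where 3904 probes had an unadjusted p under 0.05. Loess with Aquantile leaves each array's ratios as they are and gave the same counts. *Rhbg*, *Glul*, *Tbx3*, *Axin2* and *Lgr5* kept their direction under every alternative run. Signs turned only among probes that had not passed. *Oat* gave 0.11 with median centring and 0.0078 without the swap. *Slc1a2* gave -0.064 with the dye term (A_55_P1955412) and, for A_55_P2136847, -0.0049 in the authors' value table and -0.10 to 0.24 with a replicate left out. *Cyp2e1* (A_55_P1999301) gave -0.18 from processed signals, -0.15 with the dye term, -0.24 in the value table and -0.082 to 0.19 with a replicate left out. *Cyp1a2* gave 0.10 with median centring and -0.19 to 0.053 with a replicate left out. Why these signs turned was not tested. Dim probes carry little information: the ratio of the untested *Axin2* probe was 0.21 from normexp and 1.28 from processed signals. The test over 3 pairs is itself paired, since each array carries 1 liver of each genotype.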

Other observations

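Some cell type markers moved with replicate 1 in both dye orientations. *Cfd*, an adipocyte marker, read 2.35, 0.40 and -1.12 (log2, in the order of the replicates) and 2.28 on the swap. *Retn*, another adipocyte marker, read 1.25, 0.10 and 0.07, and 1.35 on the swap. The other 3 adipocyte markers, *Adipoq*, *Plin1* and *Lep*, were not above background on enough arrays to be tested, and the mean level of *Cfd* and *Retn* ran between 6.16 and 8.65 in *Rap1*-deficient liver and between 6.57 and 6.86 in wild-type liver. Over all probes, 62 read more than 1 log2 unit higher on replicate 1 than on both other replicates, and 42 of them were above 0 on the swap (median 0.31). For replicate 2 these numbers were 6 of 10 (median 0.02), and for replicate 3 they were 186 of 412 (median -0.03). Of the probes that read more than 1 log2 unit lower on 1 replicate than on both others, 25 of 45 for replicate 1 were below 0 on the swap (median -0.07), 2 of 7 for replicate 2 (median 0.27) and 7 of 17 for replicate 3 (median 0.23).

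Of 5 cholangiocyte markers tested, 2 were higher over 3 pairs and 0 lower, with medians of 0.32, 0.23 and 0.23 on replicates 1 to 3 and 0.28 on the swap. *Krt19*, a keratin of bile ducts, had a log2 fold change of 0.38 (adjusted p = 0.0520 in limma) and read 0.28 on the swap. Of 5 lymphocyte markers, 2 were higher and 0 lower, with a median of 0.45 over 3 pairs and 0.06 on the swap. *Cd3e*, of the T cell receptor complex, had a fold change of 0.68 (adjusted p = 0.0616) and read -0.22 on the swap. Of 8 stellate cell and fibroblast markers, 1 was higher and 0 lower, *Col1a2* (1.13, adjusted p = 0.0951), which read 2.27 on replicate 3, 0.69 and 0.66 on replicates 1 and 2, and 0.21 on the swap.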
